A study of Schizosaccharomyces pombe with 6 samples.

Results

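The 10 genes described here encode the core histones of fission yeast, *Schizosaccharomyces pombe*, and its histone variant H2A.Z. They were chosen by name and located by symbol in the ASM294v3 annotation, and all 10 were found among its 5113 protein-coding genes. *hta1* and *hta2* encode H2A, *htb1* encodes H2B, *hht1*, *hht2* and *hht3* encode H3, *hhf1*, *hhf2* and *hhf3* encode H4, and *pht1* encodes H2A.Z. ChIP-seq was performed in 1 strain in which Hap2 carries GFP and Arp5 carries 3HA, so every sample, the 2 inputs included, has both tags, and the cells were grown in rich medium. Anti-GFP was used for Hap2 and anti-HA for Arp5, with 2 samples each. The inputs and an untagged strain were not analysed here, so signal that an antibody gives without its tag cannot be told apart from binding. The labels do not say whether the samples numbered 1 and 2 came from separate cultures. The data are 1 list of called peaks per sample, with 3758 and 4259 peaks for Hap2-GFP and 4206 and 4277 for Arp5-3HA on the 3 chromosomes, and the number of reads behind them is unknown.

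The H2A and H2B genes *hta1* (SPCC622.08C, III:1411144-1412181, minus strand) and *htb1* (SPCC622.09, III:1412359-1413677, plus strand) form 1 divergent pair. The H3 and H4 genes form the others, which are *hht1* (SPAC1834.04, I:4699732-4700560, plus) with *hhf1* (SPAC1834.03C, I:4698773-4699599, minus), *hht2* (SPBC8D2.04, II:1365119-1365818, plus) with *hhf2* (SPBC8D2.03C, II:1364189-1364984, minus), and *hht3* (SPBC1105.11C, II:3528800-3529565, minus) with *hhf3* (SPBC1105.12, II:3529767-3530388, plus). *hta2* (SPAC19G12.06C, I:4052446-4053318, minus) and *pht1* (SPBC11B10.10C, II:1502203-1503444, minus) stand alone. Each gene has 1 coding exon, and the positions run from the annotated transcript start to its end.

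Many core histone genes are transcribed mainly as cells replicate their DNA, when new nucleosomes are needed. Most core histone genes of fission yeast stand in divergent pairs, in which 2 genes point away from a short shared promoter. These promoters carry a repeat with the bases AACCCT, here called the histone box, and the factors Ams2 and Teb1 are known regulators of histone genes. The Ino80 complex (Ino80C) is an ATP-dependent remodeler that slides nucleosomes and has been linked to the turnover of H2A.Z. Arp5 is an actin-related protein of its conserved core, and Hap2 is an auxiliary subunit.

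The shared promoters are short. They measured 177 bp between *hta1* and *htb1* (III:1412182-1412358), 132 bp between *hhf1* and *hht1* (I:4699600-4699731), 134 bp between *hhf2* and *hht2* (II:1364985-1365118) and 201 bp between *hht3* and *hhf3* (II:3529566-3529766). The sequences are shown because the peaks of the 2 proteins differed over several of these stretches. They are RefSeq sequences of ASM294v3, read 5′ to 3′ on the plus strand for the pairs and on the gene's own strand for *hta2* and *pht1*, with every match to AACCCT or its reverse complement in capitals. For *hht3*/*hhf3* only the first 140 bp are printed (II:3529566-3529705), because *hhf3* has no annotated 5′ UTR. For *hta2* (I:4053319-4053458) and *pht1* (II:1503445-1503584) the 140 bp before the annotated start are given.
hta1/htb1: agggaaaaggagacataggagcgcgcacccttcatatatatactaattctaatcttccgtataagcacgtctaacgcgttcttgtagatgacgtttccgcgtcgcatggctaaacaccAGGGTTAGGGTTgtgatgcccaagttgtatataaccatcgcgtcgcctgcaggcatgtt
hht1/hhf1: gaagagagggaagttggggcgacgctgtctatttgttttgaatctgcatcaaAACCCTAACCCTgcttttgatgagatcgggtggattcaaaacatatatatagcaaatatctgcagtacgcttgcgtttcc
hht2/hhf2: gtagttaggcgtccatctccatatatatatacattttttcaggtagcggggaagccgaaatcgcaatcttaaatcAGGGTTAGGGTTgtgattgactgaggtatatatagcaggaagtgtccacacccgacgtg
hht3/hhf3: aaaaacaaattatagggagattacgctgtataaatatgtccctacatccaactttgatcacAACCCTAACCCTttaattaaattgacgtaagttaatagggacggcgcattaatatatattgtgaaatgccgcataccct
hta2: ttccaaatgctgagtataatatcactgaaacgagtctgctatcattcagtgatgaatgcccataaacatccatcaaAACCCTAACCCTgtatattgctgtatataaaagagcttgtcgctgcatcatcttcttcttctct
pht1: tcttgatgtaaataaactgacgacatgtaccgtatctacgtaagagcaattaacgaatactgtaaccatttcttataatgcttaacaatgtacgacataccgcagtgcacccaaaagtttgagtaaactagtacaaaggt

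Each of the 5 core histone promoters held AACCCT repeated back to back in 1 copy of 12 bases, AACCCTAACCCT, with its centre 53.5 to 134.5 bp from the starts it serves. *pht1* had no match to AACCCT in the 140 bp printed. Over all coding genes, a single AACCCT on either strand was found within 250 bp upstream in 8.29% and the 12-base repeat in 0.391%, 20 of 5112 genes, of which 9 are core histone genes. A match describes the sequence and does not show that a factor binds there. The 12-base form was picked after the sequences were seen. TATAAA, searched on both strands as a second motif, was absent from the printed stretches of *hta1*/*htb1*, *hht1*/*hhf1*, *hht2*/*hhf2* and *pht1*. It is present in 27.0% of the stretches of 100 to 300 bp between divergent coding genes. Within 250 bp upstream, a longer window than the printed stretches, 44.4% of coding genes have it.

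**Figure D1:**
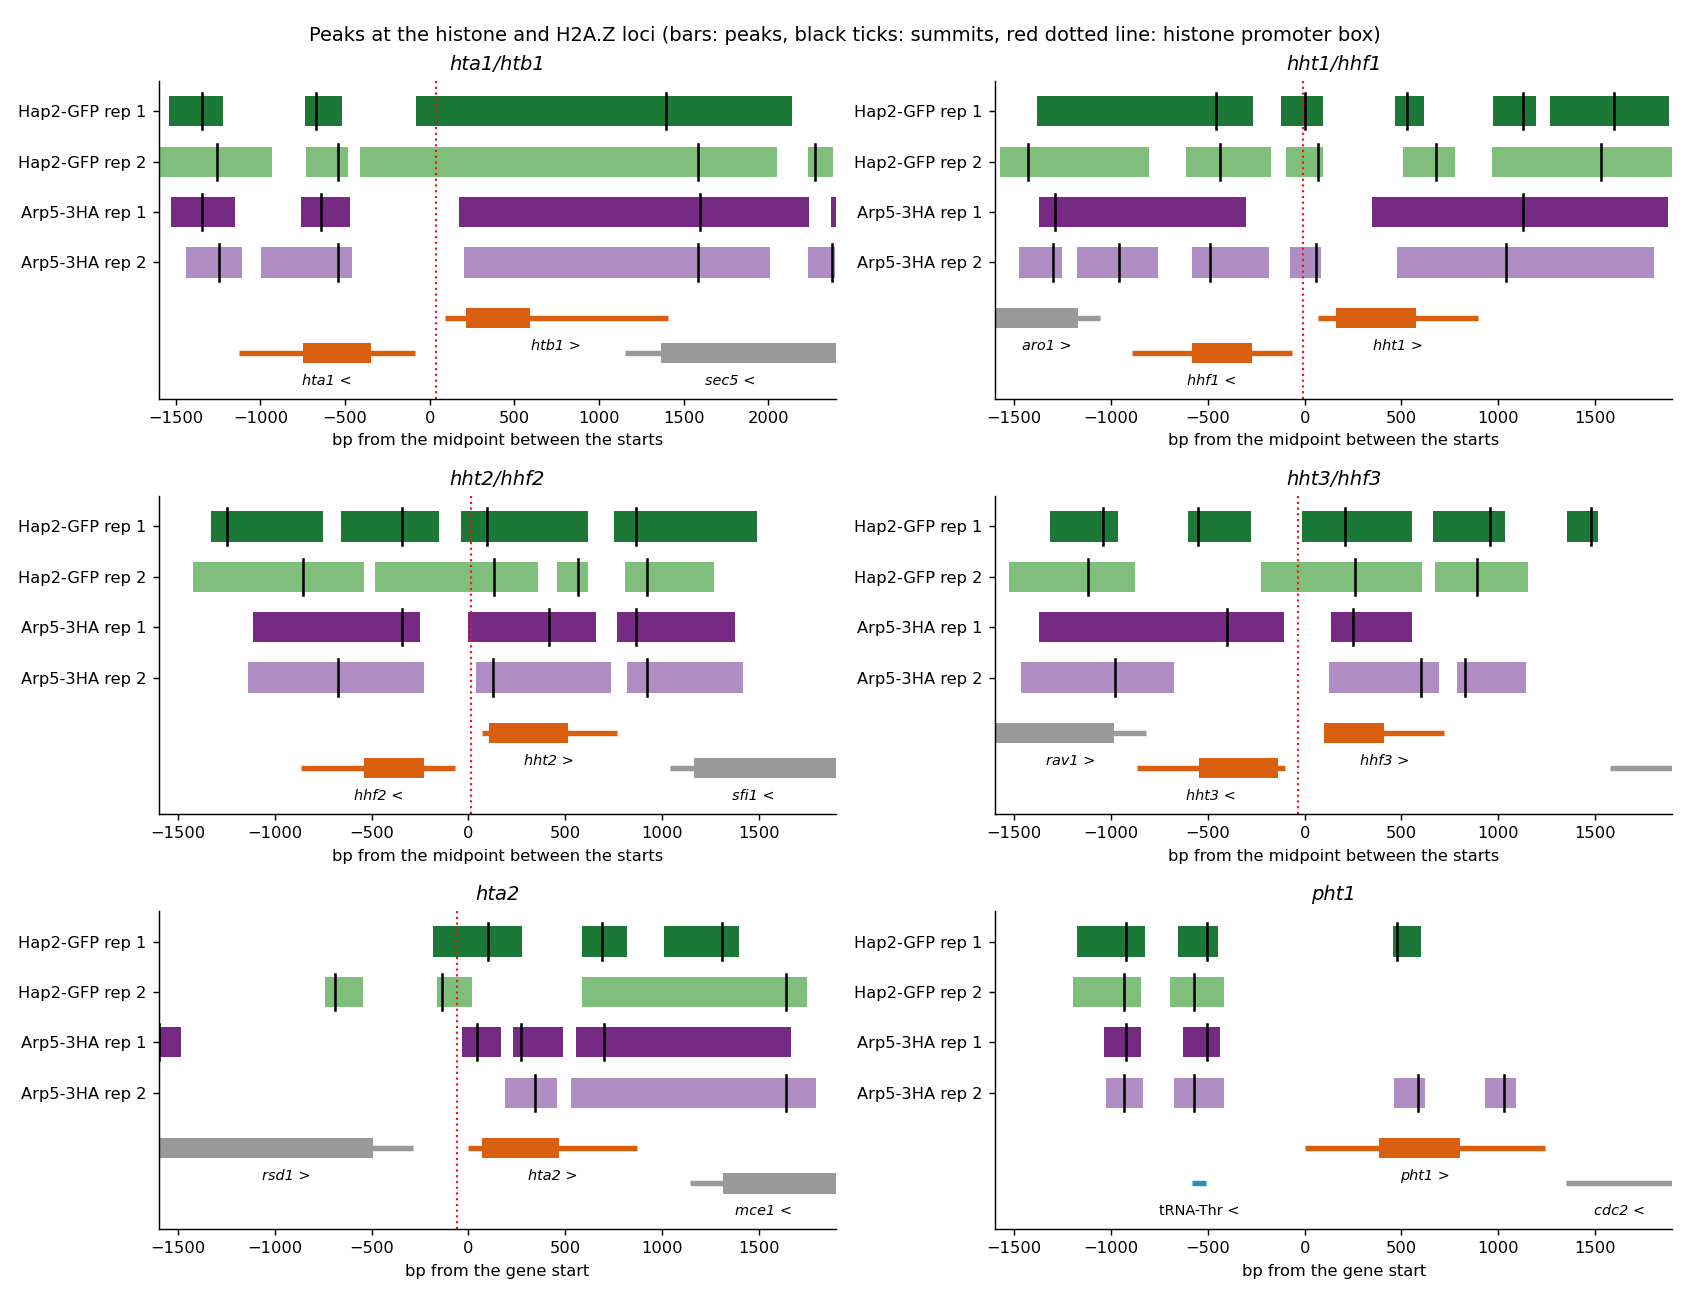
Peaks of the 4 lists (coloured bars) with their summits (black ticks) at the 4 divergent pairs and the single genes *hta2* and *pht1*, in bp from the midpoint between the starts or from the gene start. Members are orange with thick coding sequence, other coding genes grey, the tRNA gene blue, noncoding RNA genes are not drawn, and single genes are turned to read left to right. At the histone box (red dotted line), Hap2 peaks lie over it in both lists at 4 of 5 loci and in replicate 2 at *hht3*/*hhf3*, while most Arp5 peaks stop short of it on either side.

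Hap2 covered the shared promoters and Arp5 mostly flanked them. A peak here is a stretch of enrichment that the authors called in 1 sample, and a region is a stretch where peaks of both replicates of a protein overlapped by at least 1 bp and were merged. All 4 shared promoters were met by a Hap2 region, against 13.3% of the 211 divergent coding stretches of 100 to 300 bp in the genome, these 4 included. An Arp5 region met only that of *hht2*/*hhf2*, 1 of 4, against 1.9% of the 211. With 2 lists against 2, the smallest two-sided p of an unpaired exact permutation test is 0.333, so no test between the proteins was made. The values are given list by list. Annotated noncoding RNA genes overlap all 4 shared promoters and the 200 bp upstream of *hta2* and *pht1*. Where they overlap, a peak cannot be assigned to either gene.

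Between *hta1* and *htb1*, 94.9% of the bases lay under a peak in Hap2-GFP replicate 1 and 100% in replicate 2, and none did in either Arp5-3HA list. The Hap2 peaks were wide and ran from the promoter through the whole of *htb1*, from 1412191 to 1414410 in replicate 1 and from 1411861 to 1414320 in replicate 2. The Arp5 peaks over *htb1* began inside its 5′ UTR, at 1412441 and 1412471. Thus both proteins had a wide peak over *htb1*, and they differed in whether it reached back over the start.

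Between *hhf1* and *hht1*, a separate narrow peak sat over the promoter and the nearest bases of both genes. It was 220 bp wide in Hap2-GFP replicate 1 (4699541 to 4699760) and 190 bp in replicate 2 (4699571 to 4699760), and both covered the whole stretch. Its summit in replicate 1 lay 8.50 bp from the centre of the histone box and in replicate 2 it lay 78.5 bp away. Arp5-3HA replicate 2 had a like peak of 160 bp (4699591 to 4699750), and replicate 1 had none there. This is the only member promoter on which the 2 Arp5 lists were at opposite ends, 0 and 100% covered.

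Between *hhf2* and *hht2*, 80.6% and 100% of the stretch was covered by Hap2 and 50.7% and 20.9% by Arp5 in replicates 1 and 2. The Arp5 peaks were those over *hht2*, which reached upstream past its start. Between *hht3* and *hhf3* the Hap2 share was 57.7% and 100%, and no Arp5 peak met the stretch. Over the 211 divergent stretches the mean share covered was 10.5% and 14.8% for Hap2 and 0.852% and 0.751% for Arp5. Hap2 thus lay above Arp5 in these stretches too, and this order is not particular to the histone promoters.

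At the pairs the histone box lies inside the stretch just described, so its cover largely follows from the values above and is not separate evidence. Of the 5 boxes, 4 lay wholly under a Hap2 peak in replicate 1 and 5 in replicate 2, and 1 under an Arp5 peak in each replicate. The Arp5 box was that of *hht2*/*hhf2* in replicate 1 and that of *hht1*/*hhf1* in replicate 2, so no box lay under an Arp5 peak in both. Among windows of the box's length within 250 bp upstream of coding genes, 8.41% lay wholly under peaks of both Hap2 lists. For both Arp5 lists the share was 1.05%. The box that Hap2-GFP replicate 1 did not cover is that of *hht3*/*hhf3*, where its peak began at 3529651, just past the box, which ends at 3529638. The peaks carry no strand, and their edges lie on a grid of 10 bp.

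The single gene *hta2*, the second H2A gene, was covered by Hap2 at its start, as the pairs were. Hap2 peaks covered 91.0% and 81.0% of the 200 bp upstream of it, with peaks from 4053041 to 4053500 and from 4053301 to 4053480, and the histone box lay under both. Arp5 covered 16% of these bases in replicate 1 and none in replicate 2. The replicate 2 peak of Hap2 was one of the weaker ones, at the 20.7th percentile of scores in its list. The score is a whole number on an unstated scale. It served only to order the peaks of 1 list, and a higher percentile is a higher score.

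*pht1*, whose product H2A.Z is placed in nucleosomes by the Swr1 complex, had no peak within 200 bp upstream of its start in any list. Its promoter window was nevertheless met in all 4 lists, by peaks over its far end. These peaks lay over a tRNA gene, SPBTRNATHR.06 (II:1503953-1504024), which begins 509 bp upstream of *pht1*, and their summits were at 1503946 in both replicates numbered 1 and at 1504016 in both numbered 2. The tRNA gene is shown, plus strand, because the upstream summits of *pht1* fall on or beside it, with the 1 match to the B box, the internal promoter motif of tRNA genes (searched on both strands), in capitals.
SPBTRNATHR.06: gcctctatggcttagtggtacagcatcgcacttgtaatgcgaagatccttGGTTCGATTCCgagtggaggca

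Counted by a fixed promoter window, reaching 500 bp before and 100 bp beyond each start, 10 of 10 members had a Hap2 region (19.7% of coding genes did) and 9 of 10 an Arp5 region (7.76% of coding genes). The member without an Arp5 region was *hta2*. Without regions over tRNA genes the counts were 9 and 8, since *pht1* dropped out for both proteins. In the 200 bp directly upstream, 9 of 10 members had a Hap2 region (14.9% of coding genes) and 2 of 10 an Arp5 region (3.25% of coding genes), *hht2* and *hhf2*. The window count for Arp5 therefore rested largely on the gene on the other side of the shared promoter and on the first 100 bp of the gene itself, and with a window from 250 bp upstream to 50 bp downstream it was 4 of 10. Genes of a pair share most of the bases directly upstream, so these are not counts of independent genes. *hht2* and *hhf2*, with an Arp5 region there, share a promoter.

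**Figure D2:**
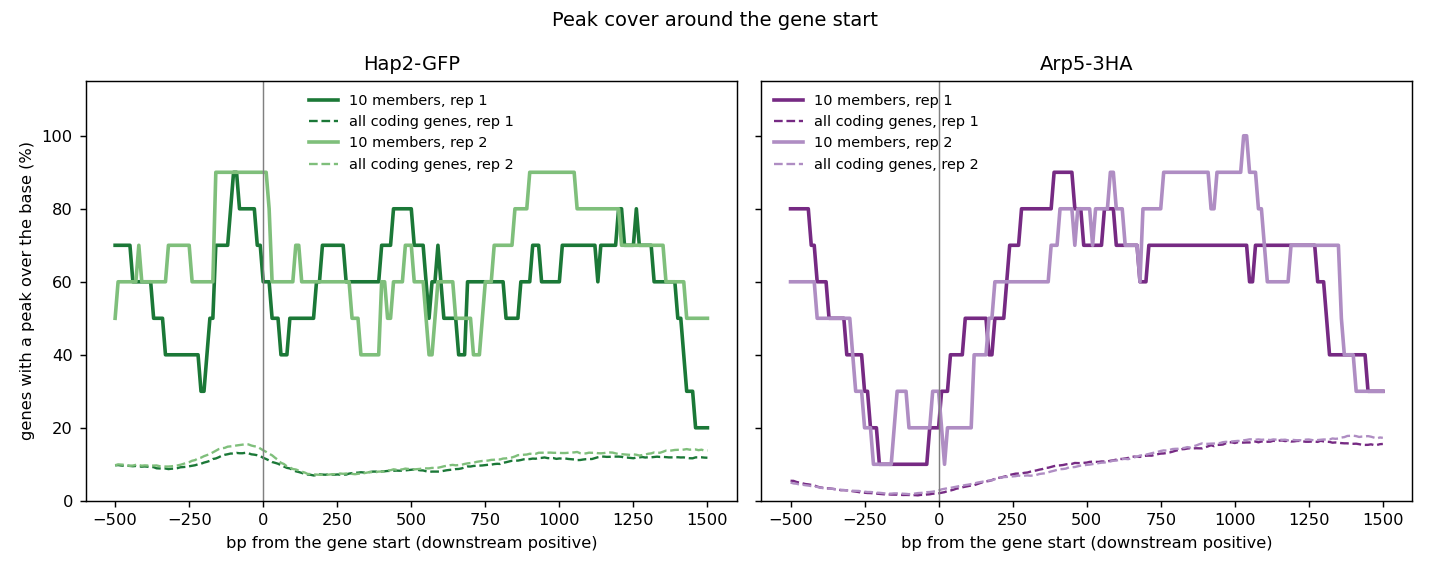
Share of genes (%) with a peak over each base between 500 bp before and 1500 bp after the start, for the 10 members (solid) and all 5113 coding genes (dashed), in each list. At 100 bp upstream 90% of the members were under a Hap2 peak in both lists, and 10% and 20% under an Arp5 peak, which rose to 90% and 70% at 400 bp downstream. For all coding genes the shares at 100 bp upstream were 12.9% and 15% for Hap2 and 1.58% and 1.82% for Arp5. Arp5 rose to 9.66% and 8.47% of coding genes at 400 bp downstream. The order of the proteins upstream and the rise of Arp5 are thus shared by coding genes at large, at lower values. Genes of a pair share upstream bases, so the 10 members are not independent there.

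Within the genes, both proteins were found over 9 of the 10 bodies, where the body runs from the annotated start to the annotated end. The background was 28.2% of coding genes for Hap2, 31.5% for Arp5 and 20.2% for both together. The exception for both was *pht1*. Annotated noncoding RNA genes overlap the whole of *hta1*, *hhf2* and *hhf3* and part of *htb1*, *hta2*, *hht1* and *pht1*. Peaks there cannot be assigned to either gene. The members had 34.6% to 41.5% GC over the whole gene, median 38.4%, against a median of 36.8% for coding genes. Among the 4232 coding genes with at least the GC content of the lowest member, the share with a region over the body was 31.5% for Hap2 and 36.2% for Arp5. The part of GC content in the coverage of the members was not tested.

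The share of the body under peaks had a median of 68.2% and 66.0% over the 10 members in the 2 Hap2-GFP lists and of 74.0% and 68.3% in the 2 Arp5-3HA lists. For coding genes the median was 0 in each list and the mean was 10.5%, 11.3%, 13.1% and 13.3%. *htb1*, the only H2B gene, was the most fully covered member in both Hap2 lists, at 100%, and had 93.8% and 91.5% for Arp5. In Arp5-3HA replicate 1 *hht3* was higher (99.3%), and in replicate 2 *hht2* (96.0%) and *hhf3* (91.6%) were.

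**Figure D3:**
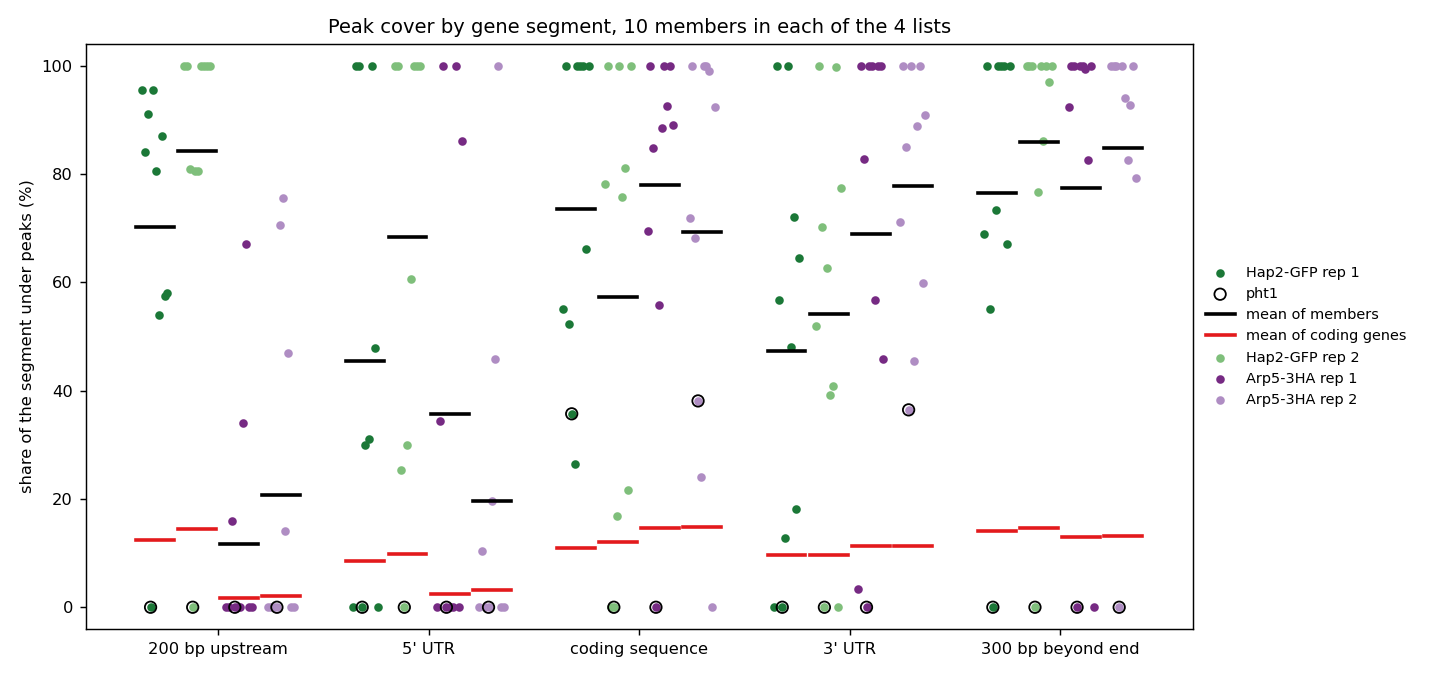
Share of each gene segment under peaks (%), 1 point per member and list (*hhf3* has no 5′ UTR), with *pht1* ringed, the mean of the members in black and the mean of all coding genes in red. In the 200 bp upstream the Hap2 means are 70.3% and 84.2%, against 12.3% and 14.5% for coding genes. Arp5 means there are lower, 11.7% and 20.7%, but above its coding-gene means of 1.70% and 2.13%. Both proteins are high over coding sequences and beyond the gene ends. Genes of a pair share most of the 200 bp upstream, so their points there are not independent.

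Both H2A genes carried both proteins over the coding sequence, with gaps. In *hta1* Hap2 covered 55.1% and 78.2% of the coding sequence and Arp5 69.4% and 71.9%. In *hta2* Hap2 covered 52.3% in replicate 1 and none in replicate 2, and Arp5 covered 84.8% and 68.2%. The Hap2 value of *hta2* thus rests on 1 list. The 5′ UTR of *hta1*, of 259 bp, was free of peaks in Hap2-GFP replicate 1 and in both Arp5 lists and was wholly covered in Hap2-GFP replicate 2.

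*pht1* had a smaller share of its body under peaks than *hta1* and *hta2* in each of the 4 lists. The shares were 12.1% and 0 for Hap2 and 0 and 25.8% for Arp5, against 21.2%, 74.0%, 27.9% and 53.7% for *hta1* and 58.2%, 34.7%, 85.1% and 70.4% for *hta2* in the same order. Its coding sequence was covered to 35.7% in Hap2-GFP replicate 1 and 38.1% in Arp5-3HA replicate 2, by single peaks of 150 and 160 bp (1502841 to 1502990 and 1502821 to 1502980), and had no peak in the other 2 lists. The peaks thus overlap each other although they come from different proteins, and neither has a partner in the replicate of its own protein. The H2A proteins of *hta1* and *hta2* differ at 3 of 132 aligned positions, and H2A.Z is identical to them at 52.9% and 53.6% of aligned positions, with coding sequences 55.1% and 58.2% identical.

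The coding sequences of the H4 genes were covered almost throughout, and their UTRs less evenly, with the 5′ UTR of *hhf2* free of Arp5 peaks in both lists. Over the coding sequence of *hhf1* the shares were 100% and 100% for Hap2 and 88.5% and 100% for Arp5. For *hhf2* they were 100% and 81.1% for Hap2 and 92.6% and 99.0% for Arp5, and for *hhf3* 100% and 100% against 89.1% and 92.3%. The lowest of these 12 values is 81.1%, so the whole range of the 3 H4 genes was no wider than the gap between the Hap2 replicates of *hhf2*.

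The H3 genes were less uniform than their H4 partners. *hht2* was covered to 100% and 75.7% by Hap2 and to 100% in both Arp5 lists. *hht1* was covered to 26.5% and 16.8% by Hap2 and to 55.7% and 24.1% by Arp5, and was the least covered H3 gene in both Hap2 lists. *hht3* depended on the list, with 66.2% and 21.7% for Hap2 and 100% and none for Arp5. For Hap2 the order *hht1*, *hht3*, *hht2* from low to high was the same in both lists, while the Arp5 replicates of *hht3* stood at opposite ends.

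The H3 copies encode identical proteins of 136 residues, and the H4 copies identical proteins of 103 residues. Their coding sequences are 88.3% to 92.7% and 91.3% to 93.3% identical, so reads could in principle be placed on the wrong copy. Of all stretches of 50 bases in the bodies of the members, at least 99.0% in each gene occur once in the genome, and all of them in 8 of the 10 genes. The exceptions are *hhf2* and *hhf3*, which share an identical run of 54 bases. How reads with more than 1 possible position were handled is not given in the sources read here.

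Beyond the genes, coverage went on past the 3′ ends. In the 300 bp after the annotated end, the mean share covered was 76.4% and 86.0% for Hap2 and 77.4% and 84.9% for Arp5, against 12.9% to 14.6% for coding genes. A Hap2 region met this stretch in 9 of 10 members (18.3% of coding genes) and an Arp5 region in 8 (16.1% of coding genes). *pht1* had no peak there in any list, and *hhf3* had none in Arp5-3HA replicate 1. Of these 3000 bases, 980 lay in a convergent coding gene. They were all 300 bp for *htb1* (*sec5*) and *hht3* (*rav1*), 193 bp for *pht1* (*cdc2*), 134 bp for *hhf1* (*aro1*), 29 bp for *hta2* (*mce1*) and 24 bp for *hht2* (*sfi1*), and the other 4 members had no coding neighbour there. In each of those 4, however, annotated noncoding RNA genes overlap the stretch. Outside the coding neighbours, 79.5% and 89.2% of the bases lay under a Hap2 peak and 76.0% and 88.0% under an Arp5 peak. Where a coding neighbour or a noncoding RNA gene overlaps, a peak cannot be assigned to either gene.

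The summits show how far this goes. The wide peak over *htb1* had its summit at 1413856 or 1413866 in 3 lists, 179 to 189 bp past the end of *htb1*. In Hap2-GFP replicate 1 it was at 1413666, 11 bp before that end. *sec5* overlaps the end of *htb1*, and the summits of all 4 lists lie within *sec5*. At *hta2* the highest peak of both replicates numbered 2 had its summit at 4051676, 770 bp past the end of the gene and within convergent *mce1*. *hht1* had Arp5 summits 236 and 146 bp past its end, in peaks of 1530 and 1330 bp, and both lie within an antisense noncoding RNA gene. These positions lie at the 3′ side of the histone genes and not at the promoter. Those within another annotated gene cannot be assigned to either gene.

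Counted once each, 15 and 14 Hap2 peaks and 11 and 15 Arp5 peaks lay over a member body. Of their summits, 7, 4, 6 and 5 were in a coding sequence, 3, 3, 1 and 3 in a 3′ UTR and 3, 6, 3 and 6 beyond the members, in the order Hap2-GFP replicates 1 and 2 and Arp5-3HA replicates 1 and 2. A summit fell between divergent starts in Hap2-GFP replicate 1 and in Arp5-3HA replicate 2, both times at *hht1*/*hhf1*. The cover of the other shared promoters by Hap2 thus came from wider peaks whose summits were elsewhere.

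In rank the histone peaks were above the middle of each list, and not at its top. The peaks over member bodies had median score percentiles of 67.0, 76.9, 81.5 and 83.9 in the same order, and median width percentiles of 82.5, 88.9, 94.6 and 88.5. Wide peaks overlap a given gene more often than narrow ones, so these ranks are a description. The highest was the *htb1* peak in Arp5-3HA replicate 2, 1810 bp wide and 52nd of 4277 by score. In the other lists the *htb1* peak stood 81st of 4206 in Arp5-3HA replicate 1, 204th of 3758 in Hap2-GFP replicate 1 and, tied with others, 313th of 4259 in replicate 2.

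**Figure D4:**
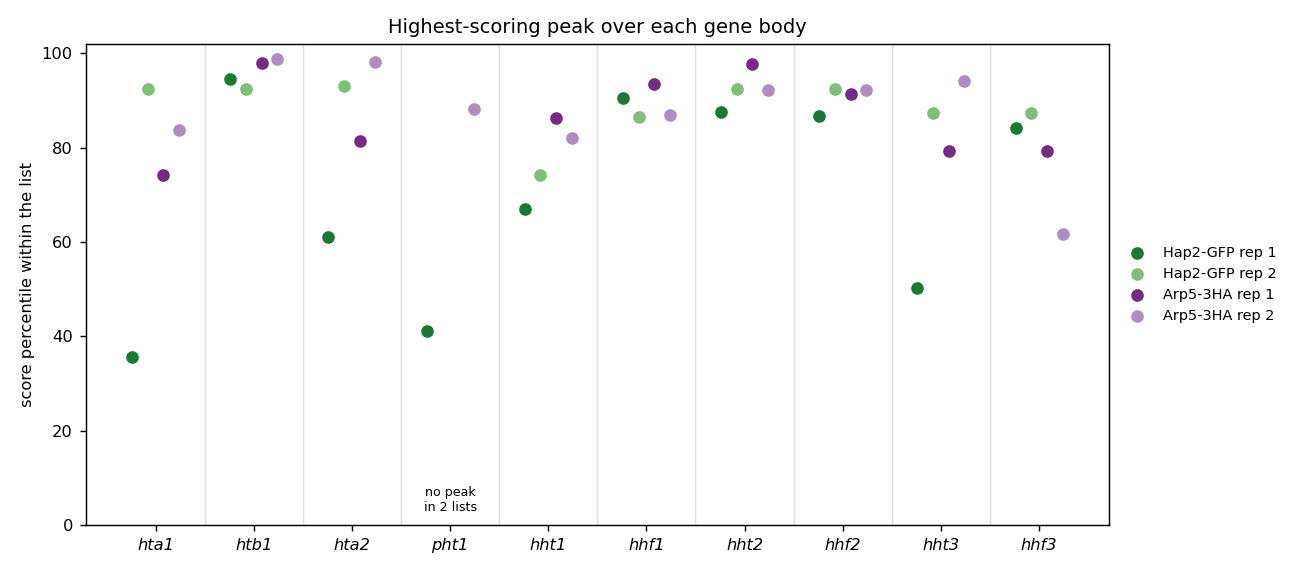
Score percentile within its list of the highest-scoring peak over each member body. *htb1*, *hhf1*, *hht2* and *hhf2* lie at 86.5 or higher in all 4 lists, *hta1*, *hta2* and *hht3* are spread widely between lists, and *pht1* has a peak in 2 of 4. The peak counted can have its summit outside the gene. Of the first 4 genes named, this was so for *htb1* in all lists but Hap2-GFP replicate 1 and for *hhf1* in both Arp5-3HA lists. It was also so for *hht2* in Hap2-GFP replicate 1. In Hap2-GFP replicate 2 the peak counted for *hhf2* is that of *hht2*, with its summit in *hht2*.

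For *hta1*, *hta2* and *hht3* the replicates of Hap2 differed most. The highest peak over *hta1* was at the 35.6th percentile in Hap2-GFP replicate 1 and at the 92.4th in replicate 2, in which the wide *htb1* peak reached into *hta1*. For *hta2* the values were 61.0 and 93.2, and for *hht3* 50.2 and 87.3. For *htb1* they were 94.5 and 92.4, and for *hht2* 87.6 and 92.4. In replicate 2 the highest peak over each of *hta1*, *hta2* and *hht3* had its summit outside the gene, and that of *hta2* lay within *mce1*. The highest peak over *htb1* in replicate 2 and that over *hht2* in replicate 1 also had their summits outside the gene. Outside summits thus do not set *hta1*, *hta2* and *hht3* apart.

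Set side by side, the 4 shared promoters and *hta2* had Hap2 peaks over at least 57.7% of the promoter stretch in both lists, taking the 200 bp upstream for *hta2*, and *pht1* had none. Over the same stretches Arp5 covered none in either list at *hta1*/*htb1*, *hht3*/*hhf3* and *pht1*, and 0 and 100% at *hht1*/*hhf1*. It covered 50.7% and 20.9% at *hht2*/*hhf2*, and 16% and none at *hta2*. In the 200 bp upstream of the 10 members Arp5 had a median of 0 in both lists and means of 11.7% and 20.7%. The coding-gene means were 1.70% and 2.13%. Over the coding sequence the pairs and *hta2* overlapped in their values, since *hta2* (52.3% and none for Hap2, 84.8% and 68.2% for Arp5) lay within the range of the paired genes except for the Hap2 value of none. With 4 shared promoters and 2 single genes no test of this difference was made.

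Among genes for histone deposition and histone gene control, coverage was near that of coding genes at large. The list holds 28 genes, for the H3 variant CENP-A, regulators of histone genes, the chaperones FACT, CAF-1 and others, and the loading of H2A.Z. A Hap2 region lay over the body of 7 of the 28 and an Arp5 region over 8, against 28.2% and 31.5% of coding genes, and over the promoter window of 7 and 2, against 19.7% and 7.76%. The median share of the body covered was 0 in 3 lists and 0.267% in Arp5-3HA replicate 1.

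*cnp1*, which encodes the centromeric H3 variant CENP-A, had no region of either protein and a single Hap2 peak, in replicate 2, over 10.1% of the gene. Regions of both proteins lay over 5 of the 28 bodies, against 20.2% of coding genes, so this count is near the background and the genes are given as examples. *spt16*, a subunit of the histone chaperone FACT, was the most covered, at 32.6% and 19.1% for Hap2 and 41.6% and 42.2% for Arp5. *nap1*, an H2A-H2B chaperone, *spt6*, an elongation factor that binds histones, and *msc1* had 3.65% to 18.6% in every list. *vps71*, of the Swr1 complex, had 0 and 0.604% of its body covered for Hap2 and 0 and 19.9% for Arp5. The highest share in the list, 42.2% for *spt16*, was below the lowest of any H4 gene, 66.1%, and above some values of *hta1*, *hta2*, *hht1* and *hht3*, such as 16.3% for *hht3* in Hap2-GFP replicate 2.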

How the data were processed

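ChIP was performed in 2 samples for Hap2-GFP and 2 for Arp5-3HA, and the 2 inputs were not analysed here. The authors deposited 1 peak list per ChIP sample with a whole-number score of unstated scale, and the labels name MACS2 2.1.2, BWA 0.7.17, Trimmomatic 0.36 and deepTools. The build, the calling thresholds and the read depth are not given in the sources read here, which do not include the supplementary methods text. ASM294v3 was used because the Hap2 summits sat on its tRNA genes on all 3 chromosomes, with median offsets of -28.5 to 15 bp, and 158 and 155 of 171 tRNA genes had a summit within 200 bp. Peaks on other sequences were left out. Peaks sharing 1 bp or more between replicates were joined into regions, and regions were laid over genes with Python 3.11.15, pandas 2.3.3 and Biopython 1.88. Scores were used only as ranks, with the percentile taken within a list. The overlap code was tested on simulated data. Members, lists and motifs were chosen with earlier results of these data known. Of the genes the text names beyond the members, *cnp1* and those with both proteins over the body were named by rule.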

Additional observations from a re-analysis of the deposited data

How the results depend on the processing

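Of 34 alternatives to the counts of members with a region, 30 left the count within 1.5 times its value. With summits in place of overlap, 5 of 10 members had Hap2 and 2 had Arp5 at the promoter window, and 5 had Arp5 over the body. With a window from 250 bp upstream to 50 bp downstream, 4 had Arp5 at the promoter. With 1 replicate alone, the counts were 10 to 10 for Hap2 and 8 to 10 for Arp5 at the promoter, and 9 to 10 for each over the body. Leaving out regions over tRNA genes, an alternative added after seeing the data, gave 9, 8, 9 and 9. No paired analysis was possible because the counts come from regions that need both replicates, and no test between the proteins was made. Lists with the same replicate number shared some summits between proteins, such as 1503946 upstream of *pht1* in both numbered 1 and 4051676 near *hta2* in both numbered 2. Peak lists hold no read depth, so a stretch without a peak cannot be told apart from one below the calling threshold.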

Other observations

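Beyond the histone genes, 11 coding genes had AACCCTAACCCT within 250 bp upstream. In 7 of them (*bdf2*, *ssa1*, *hsp90*, SPAC27E2.11C, *tbp1*, *erg1* and *ssa2*) the box lay under a peak in both Hap2 lists, and in 1, SPAC27E2.11C, in both Arp5 lists. Of all 12-base windows within 250 bp upstream of coding genes, 8.41% lay wholly under peaks of both Hap2 lists and 1.05% under peaks of both Arp5 lists. The box of *ppc89* and that of *spi1* lay under a peak in 1 Hap2 list each, and those of *eft201* and *tif51* in none of the 4 lists. *ssa1*, *ssa2* and *hsp90* encode heat shock chaperones, *tbp1* the TATA-binding protein and *erg1* an enzyme of sterol synthesis. These genes were picked after the sequences were seen, and no test was made.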
